A study of Homo sapiens with 6 samples.

Results

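The genes described here are 40 core genes of autophagy, fixed by name among 20037 protein-coding genes, and the question is at which of them MYC was found by ChIP-seq in MIAPaCa2, an established human pancreatic ductal adenocarcinoma cell line. Cells given serum-free conditioned medium of primary cancer-associated fibroblasts (CM) for 3 hours were compared with cells given fresh serum-free DMEM for the same time. All cells had first been kept without serum for 48 hours. The 6 samples are 2 immunoprecipitated libraries and 1 input per condition, all of 1 cell line, and the inputs were not analysed here. A gene is called bound in a library when a deposited peak lies no more than 1000 bp from its 5' or 3' end. These ends are the outermost positions of its annotation. The call uses the positions of peaks and genes and not the peak scores.

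Autophagy encloses cytoplasm in a double membrane, the autophagosome, and delivers it to the lysosome. The ULK kinase complex starts it, a phosphatidylinositol 3-kinase complex around BECN1 marks the membrane, ATG9A and the ATG2 proteins supply lipid, and a pair of ubiquitin-like conjugation systems couples LC3 and GABARAP proteins to the membrane, where cargo receptors dock. Pancreatic ductal adenocarcinoma cells are known for high autophagy, which returns amino acids and lipids to starved cells. MYC, a transcription factor that pairs with MAX, binds the E-box CACGTG, a motif that the lysosomal and autophagy regulators TFEB and TFE3 also recognise.

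MYC peaks lay at 25 of the 40 genes in both CM libraries and at 10 in both DMEM libraries, and all of those 10 were bound in all 4 libraries. Both counts of 10 would be 16 with DMEM library 1 left out, so that DMEM library 2 decides by itself, and 12 with DMEM library 2 left out. Among all protein-coding genes, 39.1% had a peak in both CM libraries and 15.9% in both DMEM libraries. The CM libraries had peaks at 28 and 25 of the autophagy genes, and the DMEM libraries at 12 and 16. The means were 26.5 ± 2.12 genes in CM and 14 ± 2.83 genes in DMEM (SD, n = 2 each), a difference of 12.5 genes. The exact permutation test, two-sided, gave p = 0.33, and no smaller value is possible with 2 against 2 libraries. The shares of all protein-coding genes were 43.9% and 40.9% in the CM libraries and 16.8% and 28.1% in the DMEM libraries, so the CM counts were above the DMEM counts for coding genes at large as well. The lists differ in length, with 15304 and 12797 peaks in CM and 4657 and 7652 peaks in DMEM, and read depth is unknown. When every list was cut to its 4657 highest-scoring peaks, the CM libraries had 14 and 12 autophagy genes bound and the DMEM libraries 12 and 14, a difference of 0. At that length all protein-coding genes still numbered 4394 and 4322 in CM and 3369 and 3970 in DMEM, so CM stayed above DMEM at large. The labels do not state whether the 2 libraries of each condition are separate cultures, and their spread may be technical.

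The sorting of the 40 genes by library was as follows. Bound in all 4 libraries were ULK2, PIK3R4, ATG14, ATG9A, ATG3, ATG4B, ATG10, ATG12, SQSTM1 and FOXO3, that is 25% of the genes beside 15.9% of all protein-coding genes. In both CM libraries and 1 DMEM library there were 8, RB1CC1 and PIK3C3 with DMEM library 1, and RUBCN, ATG4C, ATG5, MAP1LC3B, GABARAP and BNIP3L with DMEM library 2 (20.0%, beside 12.3% of all protein-coding genes). In both CM libraries and no DMEM library there were 7, namely ATG13, BECN1, UVRAG, WIPI2, GABARAPL1, NBR1 and TAX1BP1 (17.5%, beside 11.0%). CM library 1 alone had peaks at ATG2A, ATG2B and CALCOCO2, against 5.97% of all protein-coding genes with a peak in 1 CM library alone. The other 12, or 30.0% beside 54.1% of all protein-coding genes, were bound in no library, and they were ULK1, ATG101, AMBRA1, WIPI1, ATG4A, ATG4D, ATG7, ATG16L1, MAP1LC3A, GABARAPL2, OPTN and BNIP3. None of the 40 was bound in DMEM without being bound in both CM libraries, which is near the background: of the 20037 protein-coding genes, 134 were bound in DMEM with 1 CM library and 32 in DMEM with neither. The 7 genes of CM alone would be 13 with DMEM library 2 left out and 9 with DMEM library 1 left out. With a minimum peak score of 50, 2 genes were in that class.

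**Figure D1:**
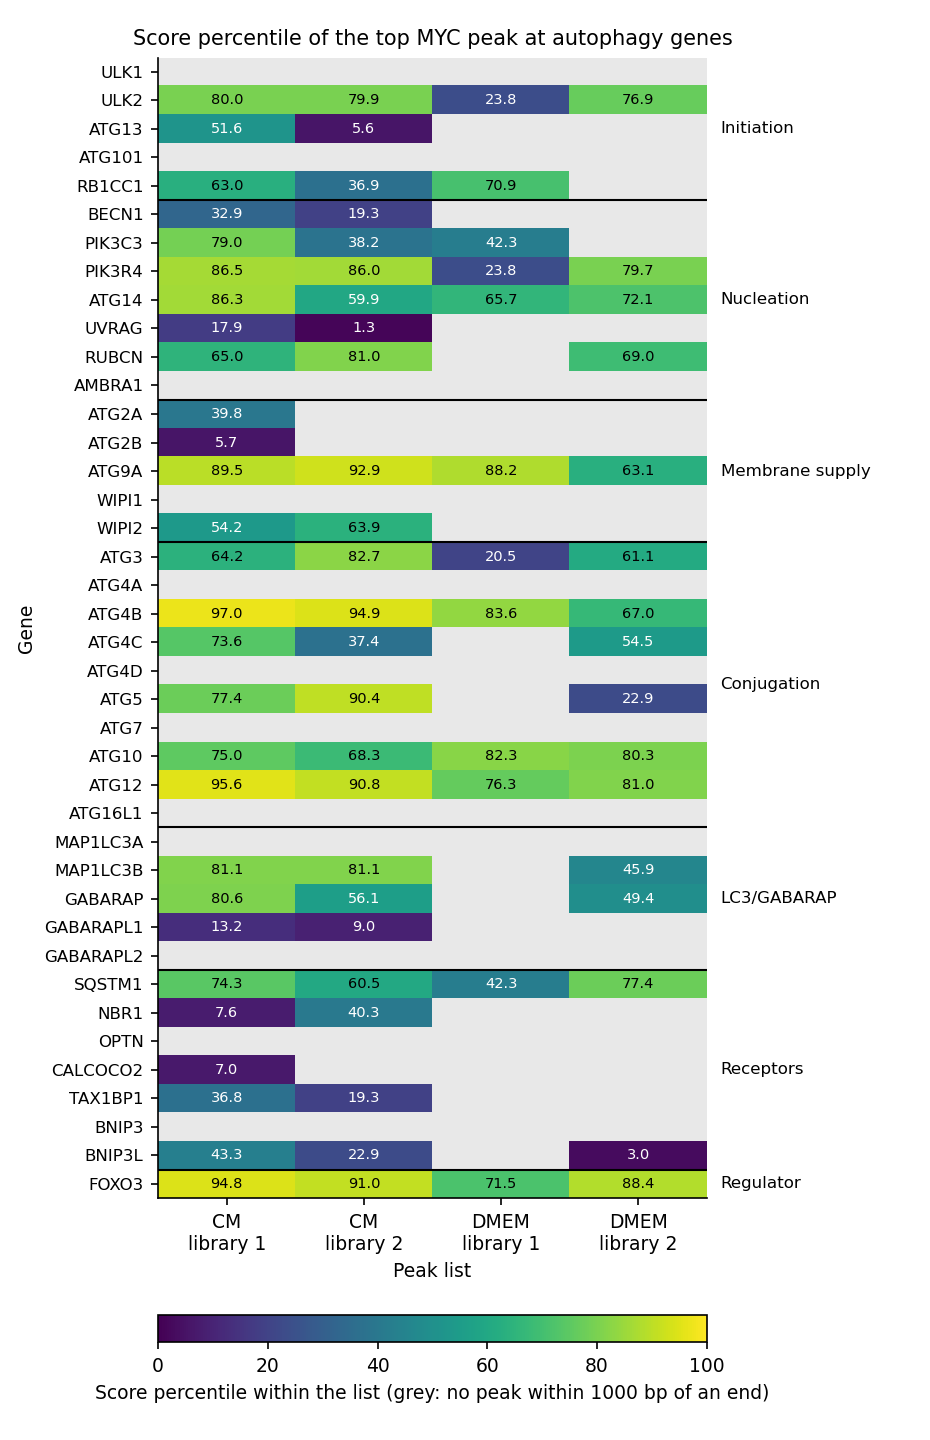
Score percentile of the highest-scoring MYC peak at each of the 40 autophagy genes (rows, grouped by role) in the 4 peak lists (columns); grey cells have no peak within 1000 bp of an end. The 10 genes with 4 coloured cells are bound in all lists, and 12 rows are grey throughout.

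Sequence around the start was read for 35 of the genes that the RefSeq promoter table of GRCh38.p14 holds, as windows of 250 bases before to 50 bases after each annotated start. RB1CC1, UVRAG, ATG4D, MAP1LC3A and BNIP3L have no entry. The windows were searched for CACGTG, which reads alike on both strands, and for CACGCG, a related E-box searched on both strands; the letters do not overlap each other in the windows shown. The 3 genes with CACGTG are shown because they part on binding, and capitals mark the motif letters. ATG3, the enzyme that transfers LC3 to lipid, has CACGTG at 18 bases before and at 5 bases after its start (first base of the motif), in a window at chr3:112561913-112562212 on the minus strand that lay under a peak in all 4 libraries.
ATG3: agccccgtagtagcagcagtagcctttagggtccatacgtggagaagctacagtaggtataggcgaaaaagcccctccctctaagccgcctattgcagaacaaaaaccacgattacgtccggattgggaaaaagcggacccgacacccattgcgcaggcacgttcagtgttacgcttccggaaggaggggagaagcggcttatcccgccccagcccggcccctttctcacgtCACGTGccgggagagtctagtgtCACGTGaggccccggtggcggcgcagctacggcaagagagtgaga
ATG14, the subunit that directs the lipid kinase to autophagosome formation, has CACGTG at 21 bases and CACGCG at 122 bases before its start, at chr14:55411781-55412080 on the minus strand, under a peak in all 4 libraries.
ATG14: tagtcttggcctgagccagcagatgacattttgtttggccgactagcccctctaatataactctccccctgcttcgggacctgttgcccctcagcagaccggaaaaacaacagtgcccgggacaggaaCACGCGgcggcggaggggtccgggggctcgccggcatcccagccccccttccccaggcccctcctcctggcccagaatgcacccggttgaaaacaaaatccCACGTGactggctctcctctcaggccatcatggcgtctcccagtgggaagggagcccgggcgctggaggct
BNIP3, a mitochondrial receptor, has CACGTG at 134 bases and CACGCG at 143 and 104 bases before its start, at chr10:131981874-131982173 on the minus strand, and no library had a peak there.
BNIP3: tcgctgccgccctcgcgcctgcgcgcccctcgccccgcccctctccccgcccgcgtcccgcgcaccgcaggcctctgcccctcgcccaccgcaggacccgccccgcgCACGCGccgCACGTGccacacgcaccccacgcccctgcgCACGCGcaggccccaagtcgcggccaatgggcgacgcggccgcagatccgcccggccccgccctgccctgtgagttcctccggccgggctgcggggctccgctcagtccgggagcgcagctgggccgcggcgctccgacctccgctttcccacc

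The share of genes with CACGTG was 8.57% (3 of 35) among the autophagy genes and 10.9% among protein-coding genes in the table, and CACGCG was found in 22.9% and 18.1%. By window, 6.38% of 47 windows of autophagy genes and 8.34% of 22199 windows of protein-coding genes held CACGTG. Of the 10 genes bound in all 4 libraries, ATG3 and ATG14 had CACGTG in these windows and the other 8 had none. The share among all protein-coding genes bound in all 4 libraries was not computed. The ratio of observed to expected CpG had a median of 0.90 in the windows of the autophagy genes and 0.74 in those of all protein-coding genes. It was 0.92 for the genes bound in both CM libraries and 0.83 for those bound in no library.

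The related kinases ULK2 and ULK1 are shown as a bound and an unbound gene of the same family. Neither window holds CACGTG or CACGCG. The ULK2 window, at chr17:19867887-19868186 on the minus strand, lay under a peak in all 4 libraries, and the ULK1 window, at chr12:131894372-131894671 on the plus strand, under none.
ULK2: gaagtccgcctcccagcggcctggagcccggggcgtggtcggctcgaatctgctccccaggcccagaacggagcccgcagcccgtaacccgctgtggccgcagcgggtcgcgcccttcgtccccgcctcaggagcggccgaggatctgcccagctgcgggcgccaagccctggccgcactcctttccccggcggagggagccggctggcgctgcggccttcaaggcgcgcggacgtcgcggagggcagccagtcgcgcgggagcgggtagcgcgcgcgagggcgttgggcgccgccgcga
ULK1: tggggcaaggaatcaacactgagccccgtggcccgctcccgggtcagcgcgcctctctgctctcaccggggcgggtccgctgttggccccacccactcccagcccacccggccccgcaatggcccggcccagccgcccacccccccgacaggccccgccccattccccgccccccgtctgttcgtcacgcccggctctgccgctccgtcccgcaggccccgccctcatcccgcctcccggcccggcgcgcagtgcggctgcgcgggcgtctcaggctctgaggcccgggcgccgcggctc

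Initiation genes encode the ULK kinases and their partners ATG13, ATG101 and RB1CC1 (also FIP200), and 3 of the 5 had a peak in both CM libraries and 1, ULK2, in both DMEM libraries, beside 39.1% and 15.9% of all protein-coding genes. To place peaks, each is given by its score percentile, the percentage of peaks in the same list with a lower score (tied peaks placed at the middle of their tie), taken for the highest-scoring peak at the gene. Percentiles of lists of different lengths are set side by side and do not measure a change. At ULK2 (chromosome 17, CM library 1 peak at 19866665 to 19868449) the percentiles were 80.0 and 79.9 in the CM libraries and 23.8 and 76.9 in the DMEM libraries. DMEM library 1 was thus low while the other 3 stood close together. RB1CC1, the scaffold of the complex (chromosome 8, CM library 1 peak at 52713363 to 52714490), had 63.0 and 36.9 in CM and 70.9 in DMEM library 1, with no peak in DMEM library 2. ATG13, the regulatory subunit (chromosome 11, CM library 1 peak at 46617081 to 46617488), had 51.6 and 5.6 in CM alone. The nearest peaks to an end of ULK1 were 4762 and 5341 bp away in the CM libraries and 5521 and 5448 bp away in the DMEM libraries. ATG101, which stabilises ATG13, had no peak at its outermost ends, yet both CM libraries had one over its RefSeq start inside the gene, with midpoints 4630 and 4583 bp from the 5' end and percentiles of 51.6 and 37.4. Neither DMEM library had a peak there.

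Nucleation genes encode the lipid kinase complex, and 6 of 7 had a peak in both CM libraries and 2 in both DMEM libraries (background 39.1% and 15.9%). PIK3R4, the regulatory kinase-like subunit (chromosome 3, CM library 1 peak at 130746707 to 130747918), had percentiles of 86.5 and 86.0 in CM and 23.8 and 79.7 in DMEM. Its peaks stood off the start in 3 libraries, by 238 bp in CM library 2 and by 697 and 427 bp in the DMEM libraries, and overlapped it in CM library 1. ATG14 (chromosome 14, CM library 1 peak at 55411602 to 55412526) had 86.3 and 59.9 in CM and 65.7 and 72.1 in DMEM, so its 2 conditions overlapped. PIK3C3, the catalytic subunit, had 79.0 and 38.2 in CM and 42.3 in DMEM library 1. BECN1, the scaffold subunit, was bound in CM alone at percentiles of 32.9 and 19.3. UVRAG, which replaces ATG14 in the endosomal form of the complex, was bound in CM alone at 17.9 and 1.3, and its highest-scoring peaks in the CM libraries did not overlap each other. A lower peak of CM library 1, at percentile 15.1, covered that of CM library 2. AMBRA1, a scaffold that binds BECN1, was bound at no end.

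RUBCN, an inhibitor of the UVRAG form of the kinase complex (chromosome 3, CM library 1 peak at 197749206 to 197751193), has 2 annotated starts. At the outer start, shared with FYTTD1, the percentiles were 65.0 and 81.0 in CM and 69.0 in DMEM library 2, with no peak in DMEM library 1. At the start 12916 bp farther in, all 4 libraries had a peak, at 84.9 and 54.4 in CM and 76.1 and 63.1 in DMEM. By RefSeq starts in place of outermost ends, RUBCN was therefore bound in all 4 libraries.

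Membrane supply genes encode the lipid scramblase ATG9A, the lipid transfer proteins ATG2A and ATG2B and the phosphoinositide-binding WIPI1 and WIPI2, and 2 of 5 had a peak in both CM libraries and 1 in both DMEM libraries, close to the 39.1% and 15.9% of all protein-coding genes. The highest-scoring peak at ATG9A (chromosome 2, CM library 1 peak at 219218153 to 219219580) had percentiles of 89.5 and 92.9 in CM and 88.2 and 63.1 in DMEM. In all 4 libraries it lay at the 3' end of ATG9A, over the start of its neighbour ABCB6 and at least 10056 bp from the ATG9A start. Peaks at the 5' end of ATG9A, shared in part with ANKZF1, ranked lower, at 79.0 and 75.1 in CM and 27.9 and 30.1 in DMEM. The DMEM library 1 peak there lay 461 bp inside the gene and that of DMEM library 2 lay 71 bp outside it, and neither covered the start, while both CM peaks did. WIPI2 (chromosome 7, CM library 1 peak at 5189907 to 5190629) was bound in CM alone at 54.2 and 63.9, the highest mean percentile of the 7 genes of that class. CM library 1 alone had peaks at ATG2A (chromosome 11, 64917216 to 64917619), at percentile 39.8, and at ATG2B (chromosome 14, 96362470 to 96362740), at 5.7. The peaks nearest to WIPI1 were 54322 and 53934 bp away in CM and 54723 and 54279 bp away in DMEM.

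Conjugation genes encode the enzymes that couple ATG12 to ATG5 and LC3 to lipid, and 4 of the 10 were bound in all 4 libraries, beside 15.9% of all protein-coding genes. They numbered 6 and 6 in the CM libraries and 4 and 6 in the DMEM libraries, a mean difference of 1 gene (exact two-sided permutation p = 1), and 0 without DMEM library 1. The ubiquitin-like protein ATG12 (chromosome 5, CM library 1 peak at 115840830 to 115842822) had percentiles of 95.6 and 90.8 in CM and 76.3 and 81.0 in DMEM. ATG10, the enzyme that transfers ATG12 (chromosome 5, CM library 1 peak at 81971388 to 81972939), had 75.0 and 68.3 in CM and 82.3 and 80.3 in DMEM, and its CM values were the lower ones. ATG3 (chromosome 3, CM library 1 peak at 112561181 to 112562090) had 64.2 and 82.7 in CM and 20.5 and 61.1 in DMEM. ATG5, the partner of ATG12, had 77.4 and 90.4 in CM and 22.9 in DMEM library 2. By contrast ATG7, the activating enzyme of both systems, and ATG16L1, which places the ATG12 and ATG5 conjugate on the membrane, were bound in no library, and the nearest peak to an end of ATG16L1 was 262856 bp away or more.

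The 4 ATG4 proteases, which trim LC3 and free it from lipid, differed from each other. ATG4B had the highest percentile of all 40 genes in both CM libraries, 97.0 and 94.9, with 83.6 and 67 in DMEM (chromosome 2, CM library 1 peak at 241635433 to 241636766). That peak only just met the distance rule, lying 927 and 882 bp from the ATG4B start in CM and 977 and 890 bp in DMEM, and it was 392 and 347 bp in CM and 442 and 355 bp in DMEM from the start of THAP4, which runs the other way. The CM libraries had a further peak over the ATG4B start itself, at percentiles of 51.6 and 47.7, and the DMEM libraries had none. That further peak covered the THAP4 start as well in both CM libraries. With a distance of 500 bp, or by peak midpoint, ATG4B was bound in CM alone. ATG4C had 73.6 and 37.4 in CM and 54.5 in DMEM library 2, and ATG4D was bound in no library. ATG4A had no peak at an end, though CM library 1 had a weak one, at percentile 20.5, 694 bp from its RefSeq start. That weak peak was shared with PSMD10.

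**Figure D2:**
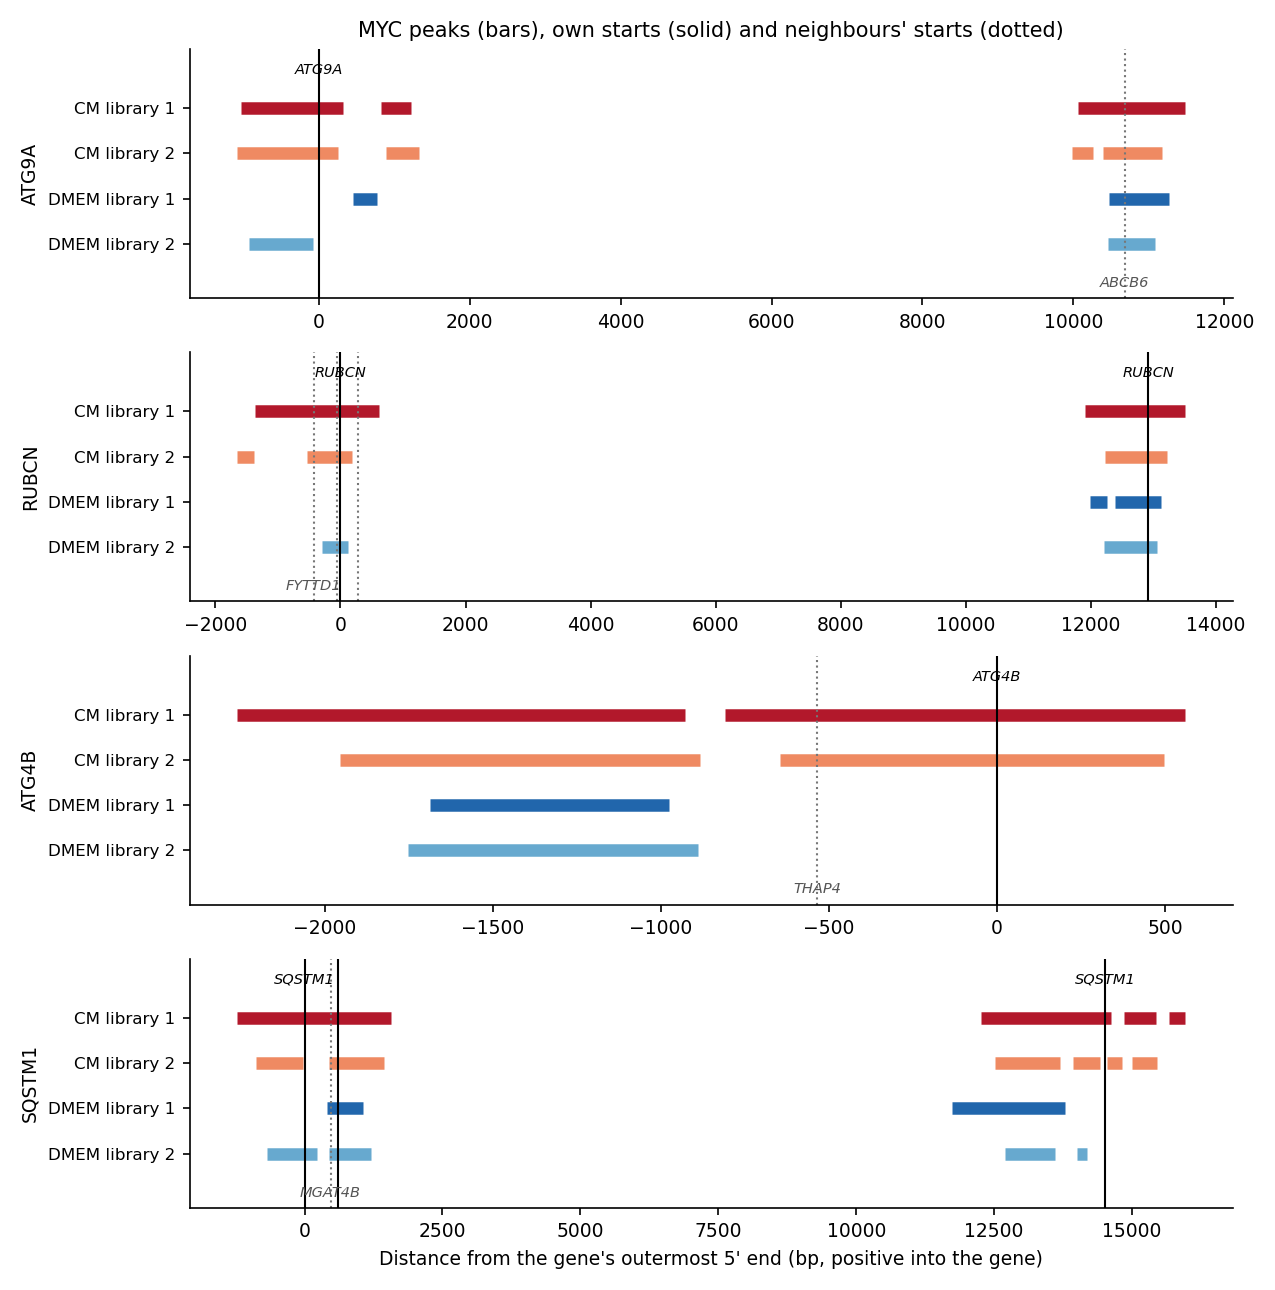
MYC peaks (bars) of the 4 libraries along ATG9A, RUBCN, ATG4B and SQSTM1, by distance in bp from the outermost 5' end, with annotated starts of the gene (solid lines) and of protein-coding neighbours that the RefSeq table holds (dotted lines). The peaks at 10678 bp in ATG9A cover the ABCB6 start, and RUBCN and SQSTM1 have peaks at starts 12916 and 14512 bp inside the gene. The bar over the ATG4B start, which also covers the THAP4 start, is in the CM libraries alone.

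The LC3 and GABARAP genes encode the proteins that are coupled to the autophagosome, and 3 of 5 had a peak in both CM libraries and 0 in both DMEM libraries (background 39.1% and 15.9%). With 5 genes, a count of 0 is near that background. MAP1LC3B (chromosome 16, CM library 1 peak at 87391012 to 87392602) had percentiles of 81.1 and 81.1 in CM and 45.9 in DMEM library 2. GABARAP (chromosome 17, CM library 1 peak at 7241549 to 7243160) had 80.6 and 56.1 in CM and 49.4 in DMEM library 2. GABARAPL1 was bound in CM alone at 13.2 and 9.0, by highest-scoring peaks that did not overlap each other. A lower peak of CM library 1, at percentile 7.6, lay within that of CM library 2. MAP1LC3A and GABARAPL2 were bound in no library. The nearest peak to an end of MAP1LC3A was 1221 bp away in CM library 2, just outside the distance rule.

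Receptor genes encode proteins that tie cargo to LC3, and 4 of 7 had a peak in both CM libraries and 1, SQSTM1, in both DMEM libraries. The background shares were 39.1% and 15.9%, and 1 of 7 is near the second of these. SQSTM1 encodes p62, the receptor of ubiquitin-marked cargo, and has 3 annotated starts. At its outer starts (chromosome 5, CM library 1 peak at 179805173 to 179807969) the percentiles were 74.3 and 60.5 in CM and 42.3 and 77.4 in DMEM, and these peaks were shared with MGAT4B. The DMEM library 2 peak did not overlap those of CM library 2 and DMEM library 1. A lower peak of DMEM library 2, at percentile 65.9, overlapped both. At the start 14512 bp inside the gene the highest-scoring peaks stood at 91.4 and 82.0 in CM and 69.6 and 89.7 in DMEM, above the outer ones in each of the 4 libraries. In CM library 1 that peak covered the inner start, while the highest-scoring ones lay 813 bp away in CM library 2 and 719 and 907 bp away in the DMEM libraries.

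The other receptor genes had low percentiles. NBR1, a relative of SQSTM1, was bound in CM alone at 7.6 and 40.3, and TAX1BP1, a receptor of protein aggregates, at 36.8 and 19.3. BNIP3L, a receptor of mitochondria (chromosome 8, CM library 1 peak at 26383629 to 26384391), had 43.3 and 22.9 in CM and 3.0 in DMEM library 2. CALCOCO2, a receptor of bacteria and mitochondria (chromosome 17, 48831243 to 48831641), was at 7.0 in CM library 1 alone. OPTN, another ubiquitin-binding receptor, and BNIP3 were bound in no library. Over the receptor genes bound, the median percentile was 36.8 and 31.6 in CM, and over the conjugation genes bound it was 76.2 and 86.6. In DMEM it was 42.3 and 40.2 over 1 and 2 receptor genes, and 79.3 and 64.0 over 4 and 6 conjugation genes. All bound protein-coding genes had medians of 69.3 and 65.7 in CM and 59.8 and 60.4 in DMEM.

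FOXO3, a transcription factor of autophagy genes (chromosome 6, CM library 1 peak at 108556959 to 108561182), had percentiles of 94.8 and 91.0 in CM and 71.5 and 88.4 in DMEM. Its CM library 1 peak, 4224 bp wide, was the widest of the 40 genes and covered 3 of its RefSeq starts. In the other 3 libraries the same stretch held several peaks. The highest-scoring were 1999 bp wide in CM library 2 and 1963 and 1636 bp wide in the DMEM libraries. These lay 930 bp from the nearest start in CM library 2 and 460 and 896 bp in the DMEM libraries. Peaks over the outermost start stood lower there, at 52.7 in CM library 2 and at 23.8 and 77.4 in the DMEM libraries.

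**Figure D3:**
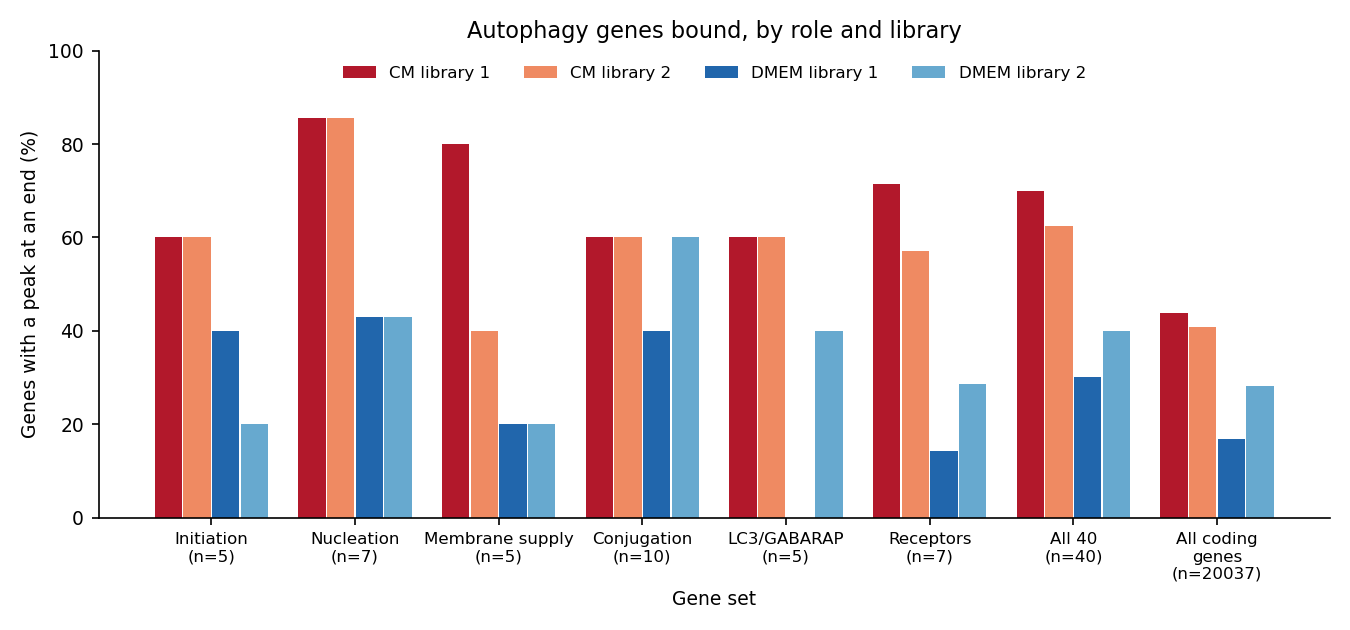
Percentage of genes with a MYC peak within 1000 bp of an end (vertical axis from 0) for each role, for the 40 autophagy genes and for all 20037 protein-coding genes, with 1 bar per library. The CM bars are as high as or above the DMEM bars in each role, and the conjugation genes are level at 60% in 3 of the 4 libraries.

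By role, the mean difference between CM and DMEM was 1.5 genes for initiation, 3 for nucleation, 2 for membrane supply, 2 for LC3 and GABARAP, and 3 for the receptors, and the exact permutation test, two-sided, gave p = 0.33 for each. No test compared the roles with each other. In lists of equal length the initiation, nucleation and receptor genes each had a difference of -0.5 genes, so that their direction turned (exact permutation p = 1 each).

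Peaks were wider in CM at 9 of the 10 genes bound in all 4 libraries, where both CM peaks were wider than both DMEM peaks. The exception was ATG9A, with widths of 1428 and 795 bp in CM and 802 and 629 bp in DMEM. At SQSTM1 the peaks of CM library 2 (1001 bp) and DMEM library 2 (906 bp) did not overlap, so their widths belong to different peaks. Of the 3180 protein-coding genes bound in all 4 libraries, 90.0% had both CM peaks wider, which is the background for this count. At ATG14 the peaks were 925 and 872 bp wide in CM and 266 and 305 bp wide in DMEM. Percentiles behaved likewise: ULK2, PIK3R4, ATG9A, ATG3, ATG4B, ATG12 and FOXO3 had both CM values above both DMEM values, 7 of 10 genes beside 67.5% of all such genes. ATG10 alone of the 10 had both CM values below both DMEM values, as did 0.943% of all protein-coding genes bound in all 4 libraries.

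**Figure D4:**
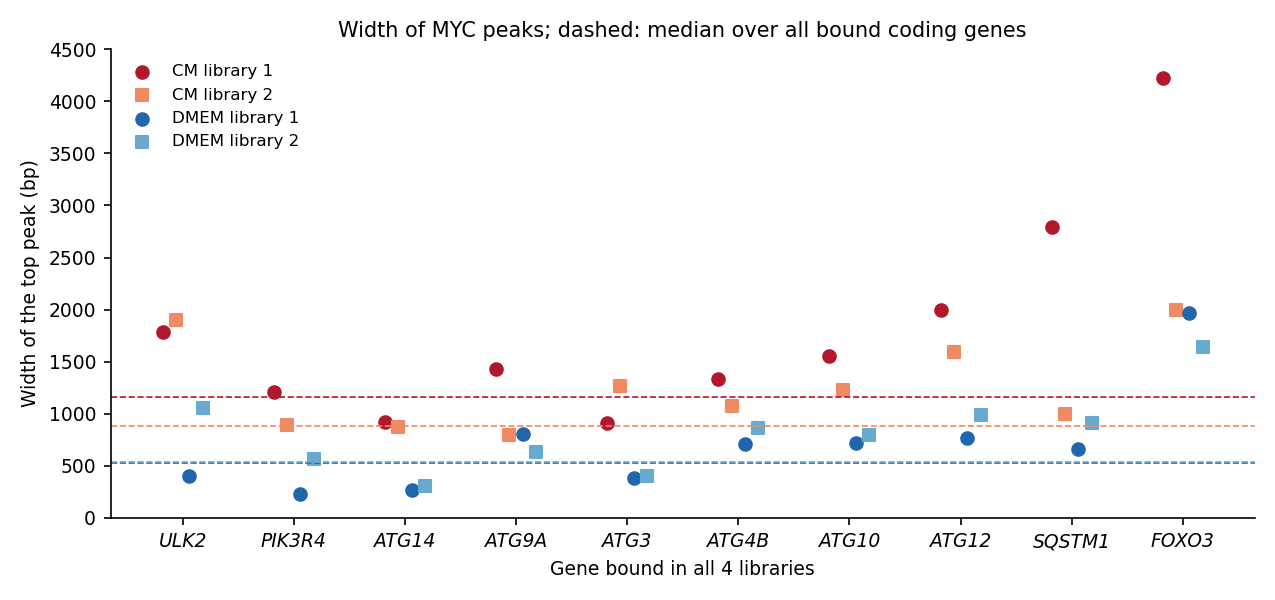
Width in bp of the highest-scoring MYC peak at the 10 autophagy genes bound in all 4 libraries, 1 point per library, with dashed lines at the median over all bound protein-coding genes of each library. The CM points lie above the DMEM points at every gene but ATG9A, and FOXO3 has the widest peak at 4224 bp.

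The median percentile of the bound autophagy genes was at or below that of all bound protein-coding genes in CM and above it in DMEM, and this was not tested. It was 69.3 and 60.5 in the CM libraries and 68.3 and 68.0 in the DMEM libraries, against 69.3 and 65.7 in CM and 59.8 and 60.4 in DMEM over all bound protein-coding genes. Within lists of equal length, both CM libraries had peaks at 9 of the 40 genes (18.0% of all protein-coding genes), 10 in both DMEM libraries (13.9%) and 7 in all 4 (12.3%), the last being ULK2, PIK3R4, ATG9A, ATG4B, ATG10, ATG12 and FOXO3. ATG5 was then the 1 gene of CM alone, against 1.93% of all protein-coding genes, and 0 had peaks in both DMEM libraries and neither CM library, against 0.369%. Its peak held rank 3446 and 1227 in the CM lists and rank 5856 in DMEM library 2.

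Many of these peaks were shared with a neighbour. The highest-scoring peak also lay within 1000 bp of an end of another protein-coding gene for 12 of 28 and 10 of 25 bound autophagy genes in CM and for 5 of 12 and 8 of 16 in DMEM. These shares of 42.9% and 40% in CM and 41.7% and 50% in DMEM compare with 35.9% and 35.0% in CM and 37.3% and 36.2% in DMEM over all bound protein-coding genes. ATG12 shares its promoter region with AP3S1, ATG3 with SLC35A5, RUBCN with FYTTD1, MAP1LC3B with FBXO31 and ATG13 with HARBI1. GABARAP had its peak beside CTDNEP1, and in CM library 1 also PHF23, ATG2A had it beside PPP2R5B and ATG2B beside GSKIP, and that of NBR1 lay at a protein-coding neighbour as well. In CM, the midpoint of the shared peak was nearer to a start of the neighbour than to one of the autophagy gene for 8 of 12 genes in library 1 and 7 of 10 in library 2, and in DMEM for 2 of 5 and 5 of 8. ATG9A and ATG4B were among them in all 4 libraries. The same count over all protein-coding genes was not made, so these numbers have no background beside them. The peak lists cannot tell which of the neighbours a shared peak belongs to. ULK2, RB1CC1, PIK3C3, PIK3R4, ATG14, ATG4C, ATG5, ATG10, WIPI2 and CALCOCO2 had no other annotated gene end within reach of their highest-scoring peaks.

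By RefSeq starts alone, 23 of the 35 autophagy genes with a listed start had a peak in both CM libraries and 11 in both DMEM libraries, beside 42.5% and 17.5% of 15842 protein-coding genes, and 7 in CM alone, beside 11.6%. The calls differed from those by gene ends at ATG101, ATG4A and RUBCN, as given above. In CM, 18 of 27 and 13 of 23 highest-scoring peaks at a start overlapped it, and in DMEM 6 of 12 and 8 of 15. The same count over all protein-coding genes was not made. Over all bound protein-coding genes the highest-scoring peaks had median widths of 1160 and 878 bp in CM and 527 and 537.5 bp in DMEM.

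Other genes of the pathway, a list of 36 that act before, beside or after the core genes, had 21 bound in both CM libraries (39.1% of all protein-coding genes) and 8 in both DMEM libraries (15.9%). They numbered 23 and 22 in the CM libraries and 8 and 16 in the DMEM libraries, a mean difference of 10.5 genes (exact two-sided permutation p = 0.33). All 8 of both DMEM libraries were bound in all 4 (background 15.9%), and 5 were bound in CM alone (13.9%, background 11.0%). PHB2, an inner mitochondrial membrane receptor, led with 95.5 and 97.1 in CM and 87.6 and 88.1 in DMEM, at a peak shared with EMG1. VMP1, a lipid scramblase of the endoplasmic reticulum, had 90.4 and 89.5 in CM and 66.6 and 81.0 in DMEM, at a peak shared with PTRH2. ATG16L2, a relative of ATG16L1, had 82.4 and 81.1 in CM and 40.9 and 49.4 in DMEM, whereas ATG16L1 itself had no peak. YKT6, a fusion protein of autophagosome and lysosome, had 73.5 and 88.9 in CM and 48.7 and 86.5 in DMEM. The other 4 bound in all libraries were WDR45, a relative of the WIPI proteins, the kinase TBK1, EI24 and TOLLIP, with percentiles from 60.1 to 83.5 in CM and from 3.7 to 66.6 in DMEM. EI24 held the lowest of these, 3.7 in DMEM library 1.

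Of 6 epithelial marker genes 4 had peaks in both CM libraries, beside 39.1% of all protein-coding genes. Of 8 fibroblast marker genes 0 had a peak in any library, and 54.1% of all protein-coding genes had none. A peak is not expression, so this does not check the identity of the cells.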

How the data were processed

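The authors deposited 1 MYC peak list for each of the 4 immunoprecipitated libraries, with a whole-number score per peak, of at least 13, which served only to rank or filter peaks within a list. The submitters' processing notes name MACS2 2.1.1.20160309, Bowtie2 2.3.4, Picard 2.9.0, Trim Galore 0.4.3 and SAMtools 1.3.1, with the build GRCh38. Settings and the use of the inputs are not given in sources used here. The files hold no read counts, so depth is unknown. In the authors' common lists of CM and DMEM, used as an alternative, each interval carries the mean score of its peaks. These lists hold 9901 and 3380 intervals, all of which matched.

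Gene positions came from RefSeq GRCh38.p14 and starts and sequences from its promoter table. Calls were made in Python 3.11.15 with NumPy 2.4.6 and pandas 2.3.3 and tested on simulated data. A call for a condition needed both libraries. Counts per library were set against all 6 relabellings in an exact permutation test, two-sided, and other values are descriptions. The genes, roles and lists were chosen with earlier results of these data known. All 40 genes were named by class, with values for those bound in all 4 libraries, up to 2 leading genes of each role, those bound in fewer than both CM libraries or with a shared peak, and, of the wider list, the 4 leading genes and those bound in all 4 libraries. BECN1, UVRAG, PIK3C3, ATG4C, ATG5, GABARAPL1 and TAX1BP1 were added with their values known. The peak position at NBR1 is not reported here. Alternatives were distances of 500 and 2500 bp, peak midpoints, a minimum score of 50, lists of equal length, starts alone, gene bodies, each library left out, a replicate block and the authors' common lists.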

Additional observations from a re-analysis of the deposited data

How the results depend on the processing

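Over the 8 per-library counts tested and 12 alternatives each, 91 of 96 differences kept CM above DMEM, 3 reversed and 2 became 0. The replicate block, among these alternatives, cannot change a difference. The smallest p in this design is 0.33, so no p here speaks for stability. In lists of equal length the difference for all 40 genes was 0, and it was -0.5 for initiation, nucleation and receptor genes. For the conjugation genes it was 0 without DMEM library 1, in a range of 0 to 2 over the libraries left out. For all 40 genes that range was 10.5 to 14.5, and for the wider list 6.5 to 14.5. Genes bound in both CM libraries numbered 9 in lists of equal length, where every list has 4657 peaks. Genes bound in both DMEM libraries, and in all 4, numbered 10 to 16 over the libraries left out, with 16 when DMEM library 1 was left out. Leaving a library out loosens the rule for a class, so such counts can only stay or rise. Genes of CM alone numbered 7 to 13 over the libraries left out, 2 with a minimum score of 50 (WIPI2 and ATG5), 1 in lists of equal length (ATG5) and 15 by the authors' common lists, where a gene with a peak in 1 DMEM library counts as CM alone. Other alternatives kept these 4 class counts within 1.5 times. Differences by role moved more: in lists of equal length to 0.5 for membrane supply, conjugation, and LC3 and GABARAP, and to 2 for the wider list. With a minimum score of 50 they were 1.5 for receptors, 1 for LC3 and GABARAP and 2 for conjugation. By starts alone nucleation had 1.5, and with gene bodies conjugation and initiation had 2.5. A distance of 500 bp or peak midpoints gave 2 for conjugation, as did leaving out DMEM library 2. Without CM library 1 membrane supply had 1, and without DMEM library 1 LC3 and GABARAP had 1 and the wider list 6.5. Genes without a RefSeq start count as unbound by starts alone.

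The label numbers 1 and 2 are shared by the conditions, but nothing says that they pair the libraries. The deviations of same-numbered libraries had a correlation of 0.01 over 20037 genes. These deviations are differences of bound calls, which were equal in both libraries of a condition at most genes. The correlation therefore cannot decide whether the libraries are paired. A replicate block cannot change a difference, only its p. For all 40 genes the difference stayed 12.5 (p = 0.5 by an exact permutation of signs, the smallest that 2 pairs allow).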

Other observations

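Some autophagy genes with no peak at an end had peaks far inside the gene. In AMBRA1 both CM libraries had a peak with midpoints 36192 and 36103 bp from the 5' end and percentiles of 74.3 and 52.7, at least 29047 bp from an annotated start, and neither DMEM library had a peak in the gene. In ATG7 both CM libraries had peaks near the far end, the highest-scoring at percentiles of 66.5 and 41.7 and with midpoints 295990 and 296487 bp from the start, and neither DMEM library had one. MAP1LC3A had peaks inside the gene in CM library 2 alone, at 16.5 and 17.4. With gene bodies included, ATG101, AMBRA1 and ATG7 joined the genes bound in CM alone, which then numbered 10. The share of all protein-coding genes in that class was not computed with gene bodies included, so this count has no background beside it.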
